A study of Mus musculus with 58 samples.

Results

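The mitosis genes described here are 46 genes chosen by name from the 23152 gene symbols of the deposited table. Their products drive entry into and exit from mitosis (8 genes), compact and organise chromosomes (6), form the kinetochore and its checkpoint (8), make up the chromosomal passenger complex (3), build the spindle and centrosome (15) or carry out cytokinesis (6). They were read in 58 bone marrow cells, each sorted singly, of wild type C57BL/6 mice with no stated treatment. A gate of Lin- cKit+ Sca1+ cells with neither Flt3 nor CD34 gave 34 long-term haematopoietic stem cells (LT-HSC). A gate of Lin- cKit+ Sca1- CD16/32- cells with CD34 gave 24 common myeloid progenitors (CMP). The labels give no age, sex or animal, and the same passage range is attached to both gates without explanation. The LT-HSC were read as cells 1 to 16 and cells 17 to 34, a cut by cell number that comes from earlier results of these data and that no label explains.

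Each pool of cells counts as 1 sample, because no label says which animal a cell came from. No test was made, no difference has a replicate check, and the 95% intervals cover counting error alone. The summed counts were 3410149 in LT-HSC 1 to 16, 6520982 in LT-HSC 17 to 34 and 7062737 in CMP, with a range of 45022 to 860553 counts per cell. The 8 LT-HSC markers, such as Procr and Hlf, summed to a median of 14.7, 2.59 and 0.481 counts per 10000 in these 3 pools. The 7 myeloid progenitor markers summed to a median of 2.51, 4.48 and 51.1. Most of their counts in both LT-HSC pools were of Prtn3, at 329, 417 and 977 CPM in the 3 pools. Mpo stood at 0.586, 62.3 and 2086 CPM and Elane at 0.88, 0 and 634. Of markers of other cells, the 6 lymphoid genes summed to a median of 0, 2.78 and 3.33 counts per 10000 in the 3 pools, with highest cells of 0.140, 16.9 and 12. Nearly all of these counts were of Nkg7, a granule protein of cytotoxic lymphocytes, at 2.35, 530 and 427 CPM of the pools, while Cd3e, Cd3g and Ms4a1 had no count in any cell. The 5 macrophage genes reached 0.354, 0.178 and 1.28 counts per 10000 in the highest cell, with Adgre1 and Mrc1 at 0 throughout, and the 5 stromal and endothelial genes 2.83, 1.33 and 2.63, with Cxcl12, Col1a1 and Cdh5 at 0. The part of such cells in the results was not tested. Xist, the transcript of the inactive X chromosome, had a count in no LT-HSC and in 22 of 24 CMP, so that gate and donor sex cannot be told apart except through CMP 1 and CMP 2.

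As background, a cell that has copied its DNA enters mitosis when cyclin-bound Cdk1 becomes active, compacts its chromosomes, attaches them to the spindle through kinetochores, and divides after the anaphase-promoting complex marks cyclins and securin for destruction. Most of these genes are transcribed in a wave that starts in late S phase and peaks in G2 and mitosis, and their transcripts are low in resting cells. LT-HSC are known as a mostly resting population, and CMP as a dividing one. Many promoters of the wave carry a CHR element (cell cycle genes homology region), which the DREAM complex binds in resting cells and a complex with B-Myb in cycling cells, often together with CCAAT boxes, the motif of NF-Y.

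The promoter sequences show what many of the genes share beyond the role they were chosen for. A RefSeq window of 300 bases on GRCm38.p6, from 250 bases before to 50 bases after the gene start, was found for 40 of the 46 genes, and Aurkb, Cdc25c, Cdca2, Dlgap5, Smc4 and Tpx2 had none. For the 3 genes with more than 1 window, the first one listed was used. The letters TTTGAA, the common form of the CHR element, were searched on both strands, as were TTCGAA, a rarer form, and CCAAT. A place that matches one CHR form cannot match the other, while a CHR match and a CCAAT match can share end bases. The windows below are printed 5′ to 3′ on the strand of the gene, with each match in capitals (TTTGAA or its reverse TTCAAA, and CCAAT or its reverse ATTGG). Cdk1 and Cdc20 stand for entry and exit, Cenpa and Hmmr for genes with the match after the RefSeq start, and Arhgap11a and Cenpj for genes nearly without counts in LT-HSC.
Cdk1 (chr10:69352863-69353162, minus strand): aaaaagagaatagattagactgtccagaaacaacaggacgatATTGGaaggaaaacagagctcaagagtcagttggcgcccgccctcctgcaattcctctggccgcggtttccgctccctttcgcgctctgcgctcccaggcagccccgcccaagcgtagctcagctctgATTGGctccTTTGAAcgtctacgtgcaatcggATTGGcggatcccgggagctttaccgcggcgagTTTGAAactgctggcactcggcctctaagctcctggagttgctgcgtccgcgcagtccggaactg
Cdc20 (chr4:118437294-118437593, minus strand): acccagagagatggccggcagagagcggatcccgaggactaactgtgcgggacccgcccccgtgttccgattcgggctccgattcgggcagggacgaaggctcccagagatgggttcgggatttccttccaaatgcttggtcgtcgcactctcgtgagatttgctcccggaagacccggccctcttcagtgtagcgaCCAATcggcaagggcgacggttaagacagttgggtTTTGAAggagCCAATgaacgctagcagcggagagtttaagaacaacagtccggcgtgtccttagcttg
Cenpa (chr5:30666636-30666935, plus strand): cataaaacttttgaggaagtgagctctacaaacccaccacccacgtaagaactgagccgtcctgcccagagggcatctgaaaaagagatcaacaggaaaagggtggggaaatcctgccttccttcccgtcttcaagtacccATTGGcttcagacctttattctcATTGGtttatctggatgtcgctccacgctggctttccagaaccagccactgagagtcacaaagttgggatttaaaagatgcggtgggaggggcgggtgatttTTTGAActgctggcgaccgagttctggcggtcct
Hmmr (chr11:40733388-40733687, minus strand): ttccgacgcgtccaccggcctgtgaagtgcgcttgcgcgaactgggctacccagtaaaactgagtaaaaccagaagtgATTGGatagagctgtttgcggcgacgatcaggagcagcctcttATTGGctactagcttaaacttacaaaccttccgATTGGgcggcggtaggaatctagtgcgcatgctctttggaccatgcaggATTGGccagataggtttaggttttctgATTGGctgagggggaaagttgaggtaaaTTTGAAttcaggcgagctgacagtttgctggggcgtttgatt
Arhgap11a (chr2:113848612-113848911, minus strand): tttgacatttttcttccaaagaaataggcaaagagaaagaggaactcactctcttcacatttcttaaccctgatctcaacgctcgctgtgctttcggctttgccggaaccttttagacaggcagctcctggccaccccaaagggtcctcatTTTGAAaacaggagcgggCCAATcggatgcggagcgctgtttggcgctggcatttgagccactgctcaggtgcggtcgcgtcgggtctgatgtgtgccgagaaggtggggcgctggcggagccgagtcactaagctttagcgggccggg
Cenpj (chr14:56571797-56572096, minus strand): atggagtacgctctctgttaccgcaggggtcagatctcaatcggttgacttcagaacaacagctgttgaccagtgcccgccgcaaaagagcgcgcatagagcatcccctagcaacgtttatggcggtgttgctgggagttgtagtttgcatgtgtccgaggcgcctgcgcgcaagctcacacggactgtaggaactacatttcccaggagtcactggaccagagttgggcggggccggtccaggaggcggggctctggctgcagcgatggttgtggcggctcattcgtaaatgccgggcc

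TTTGAA was present in 27 of the 40 windows (67.5%), against 18.1% of 27025 genes with a window and 12% of the 8401 genes that also had at least 20 counts here. CCAAT was present in 30 of the 40 windows (75%) against 37.9% of all genes, and both motifs together in 57.5% against 7.12%. TTCGAA was present in 4 windows (10%), among them those of Bub1 and Psrc1, against 1.57%. The matches also lay in 1 region. Of 36 TTTGAA matches, 25 began at or after 50 bases before the start (69.4%), against 24.8% of the 5632 matches over all genes. The median position was -17.5 bases from the start in the mitosis genes and -125 over all genes. In Cdc20 the TTTGAA match began at -18 with CCAAT boxes at -53 and -8, in Cdk1 TTTGAA matches began at -71 and -15, and in Cenpa and Hmmr the match began after the RefSeq start, at 16 and 8. The Hmmr match lies before the start annotated in GENCODE M21 (chr11:40733422, minus strand), so its side depends on the annotation. No match of any of the 3 motifs was found in the windows of Nuf2, Nusap1, Tacc3, Birc5, G2e3 and Cenpj. The Cenpj window lies inside the gene as annotated in GENCODE M21 (chr14:56526761-56575425, minus strand). Its lack of matches therefore holds for that RefSeq start alone. A match is a run of letters and not a measured binding site.

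**Figure D1:**
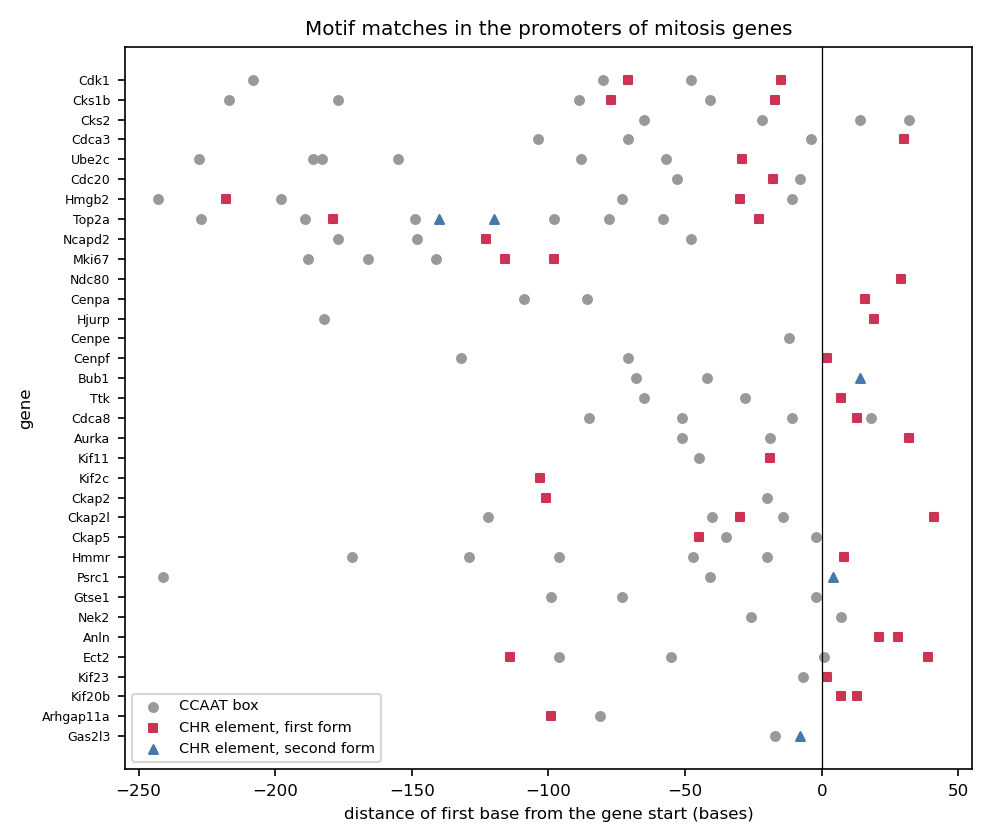
Positions of motif matches in the 300 bases around the start of each mitosis gene that has at least 1 match; the x axis is the distance in bases of the match's leading base from the gene start, the y axis lists genes by role, squares and triangles are the 2 forms of the CHR element and circles are CCAAT boxes. Most squares lie between 50 bases before and 50 bases after the start, and CCAAT boxes lie mostly before the start.

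Pooled by gate, the mitosis genes were higher in CMP. In CMP against all LT-HSC, 28 of 46 genes stood at least 2-fold higher in CMP and 1 (Psrc1) at least 2-fold lower, where 28.1% and 22.7% of all genes with at least 20 counts over both pools were called in those directions. The median log2 ratio was 1.47, against 0.13 over all those genes. The size of the difference depended on which LT-HSC were compared. Against LT-HSC 1 to 16, 43 of 46 genes were at least 2-fold higher in CMP (37.1% of all genes), with a median log2 ratio of 4.02, or 3.69 with the 4 genes that had no count in those LT-HSC set to the limit of 3 counts, against 0.36 over all genes. Against LT-HSC 17 to 34, 23 of 46 were at least 2-fold higher in CMP (34% of all genes) and Aurka and Psrc1 at least 2-fold lower (20% of all genes), with a median of 0.97 against 0.24. These comparisons share the CMP cells and are given side by side for that reason.

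The LT-HSC pools differed from each other as well. In LT-HSC 17 to 34 against LT-HSC 1 to 16, 37 of 46 genes were at least 2-fold higher and Gas2l3 at least 2-fold lower, where 29.5% and 26.8% of all genes were called in those directions. The median log2 ratio was 2.81, against 0.10 over all genes. Among the 41 mitosis genes that met the limit of 20 counts used for all genes, 36 were higher and 1 lower, with a median of 3.04. Of the 46 genes, 18 crossed a 2-fold limit here when some 1 cell was left out, a count not made over all genes. Among the genes past 2-fold, 8 changed sign: Cdc25c, Ndc80, Cenpa, Bub1, Nusap1 and Ect2 without LT-HSC 17, Cenpe without LT-HSC 33 and Psrc1 without LT-HSC 18. The 8 genes between the limits included Cenpj and Gtse1, with 0 and 1 counts in LT-HSC 17 to 34 and none in LT-HSC 1 to 16.

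**Figure D2:**
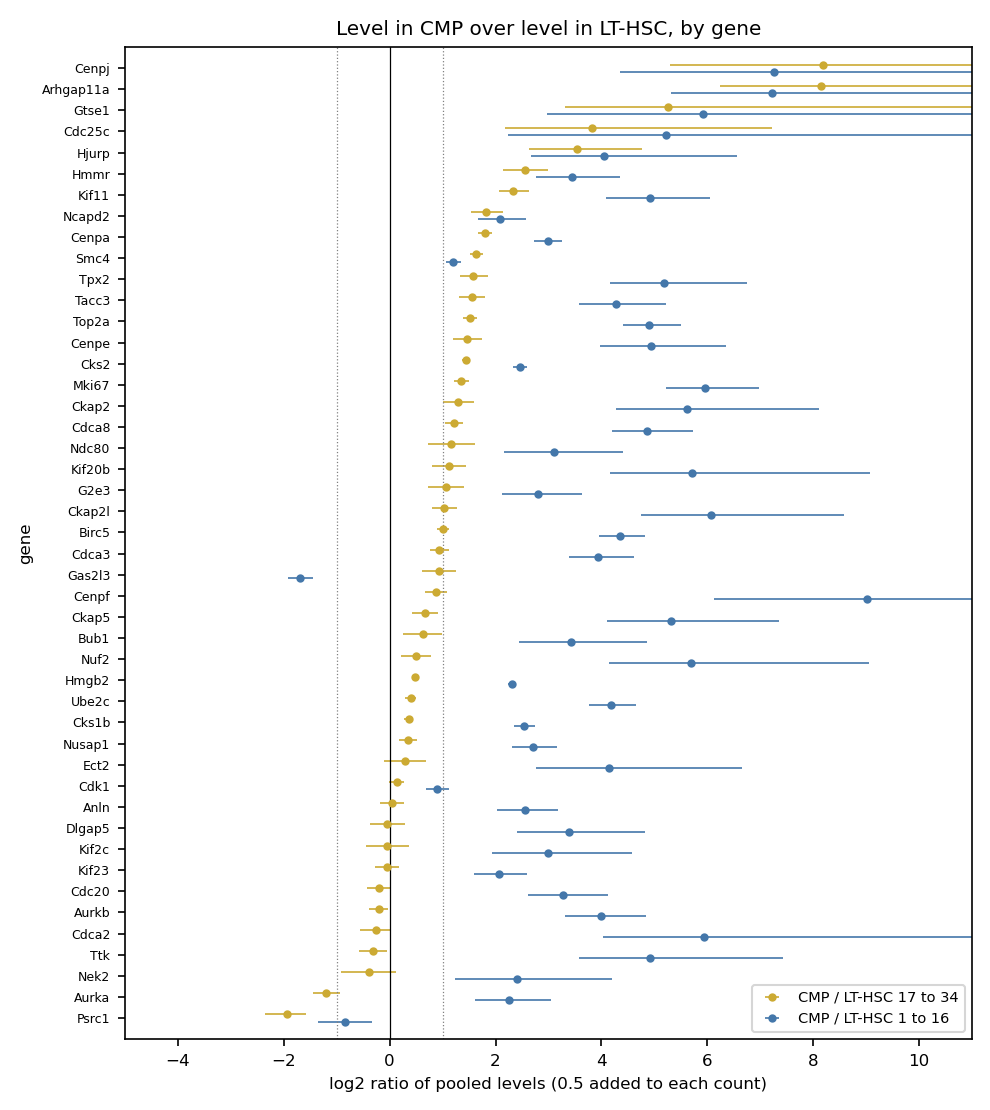
Log2 ratio of the pooled level in CMP to that in LT-HSC 17 to 34 (yellow) and in LT-HSC 1 to 16 (blue) for each of the 46 genes; bars are 95% counting intervals, some run past the axis, and dotted lines mark 2-fold. All blue points but those of Cdk1, Gas2l3 and Psrc1 lie at least 2-fold to the CMP side, while the yellow points spread on both sides of 0.

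The same comparison looked different cell by cell. Summed over the 46 genes, LT-HSC 1 to 16 held 2.53 (lowest), 11.1 (median) and 18.6 (highest) counts per 10000 of the cell. LT-HSC 17 to 34 held 2.44, 11.5 and 155, and CMP held 23.2, 55.6 and 163. The median cells of the LT-HSC pools were thus nearly level, and the difference between the pools lay in a few cells. Of the 34 LT-HSC, 30 were below the lowest CMP, all 16 of the earlier block and 14 of the later one. Hmgb2, a chromatin protein that bends DNA and is also made outside mitosis, gave the most counts; without it the medians were 6.35, 6.56 and 32.5.

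**Figure D3:**
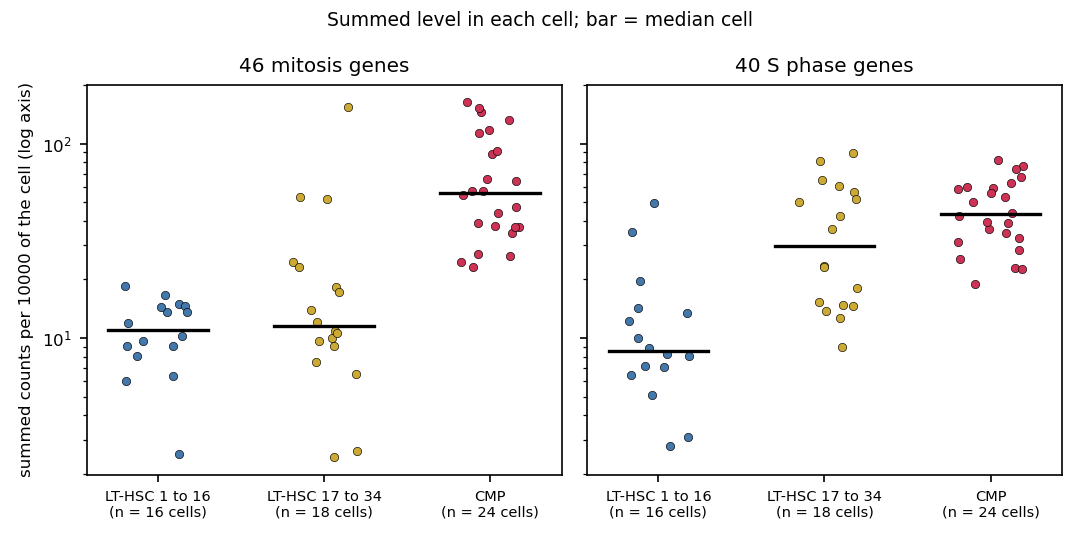
Summed counts per 10000 in each cell (log axis) for the 46 mitosis genes (left) and 40 S phase genes (right); points are cells, spread sideways at random, and the bar is the median cell of each pool. For the mitosis genes most cells of both LT-HSC pools lie under the lowest CMP, at 23.2, while for the S phase genes the LT-HSC 17 to 34 reach across the CMP range.

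LT-HSC 17 stood highest among the LT-HSC, at 155 counts per 10000, within the range of the highest CMP. It held 44.1% of all mitosis gene counts of its pool with 11.2% of the pool's total counts, and it had at least 10 counts of 36 of the 46 genes. LT-HSC 33 followed at 53.3 and LT-HSC 18 at 51.7 counts per 10000, with at least 10 counts of 27 and 18 genes. The median over the pool was 3 genes, against 4 in LT-HSC 1 to 16 and 14.5 in CMP. For 24 genes LT-HSC 17 held more counts than any other cell of its pool, for 11 LT-HSC 33 did, and for 8 LT-HSC 18. In LT-HSC 17 to 34, 32 of the 45 genes with a count had more than 50% of their counts in 1 cell, against 13 of 42 in LT-HSC 1 to 16 and 4 of 46 in CMP. The same was not counted over all genes, so it cannot be called a trait of the mitosis genes. LT-HSC 17, LT-HSC 33 and LT-HSC 18 were also the 3 deepest LT-HSC, with 729071, 829389 and 860553 counts.

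The 3 cells carried different genes. LT-HSC 17 led for genes known from late G2 and mitosis: it had 1100 counts of Ube2c, the ubiquitin-conjugating enzyme of the anaphase-promoting complex, 1051 of Cks2, 516 of Cenpa, 493 of Birc5, 441 of Nusap1 and 336 of Aurka. It had 4014 counts of Hmgb2, or 55.1 per 10000, where the highest CMP had 38.5. Of Cenpe, Gtse1, Nek2, Cenpj, Kif20b and Arhgap11a it had at most 1 count. LT-HSC 33 led for Cks1b with 837 counts, Mki67 with 301, Cenpe with 157 and Ttk with 143. It also led for Cdca2 with 140, Nuf2 with 116 and Kif20b with 99. Among the genes of which LT-HSC 33 had at most 1 count were Bub1, Kif11, Hmmr, Ckap2l, Ckap5 and Dlgap5. LT-HSC 18 led for Cdca3 with 237 counts, Top2a with 236, Cdk1 with 231, Psrc1 with 202, Ckap2l with 161 and Nek2 with 63. It had at most 1 count of many other genes, among them Aurka, Smc4, Nusap1, Anln, Ndc80, Nuf2, Ttk and Tpx2. The S phase genes summed to 23.4 counts per 10000 in LT-HSC 17 and to 88.9 and 81.2 in LT-HSC 33 and LT-HSC 18. These cells were picked out after their values were seen.

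**Figure D4:**
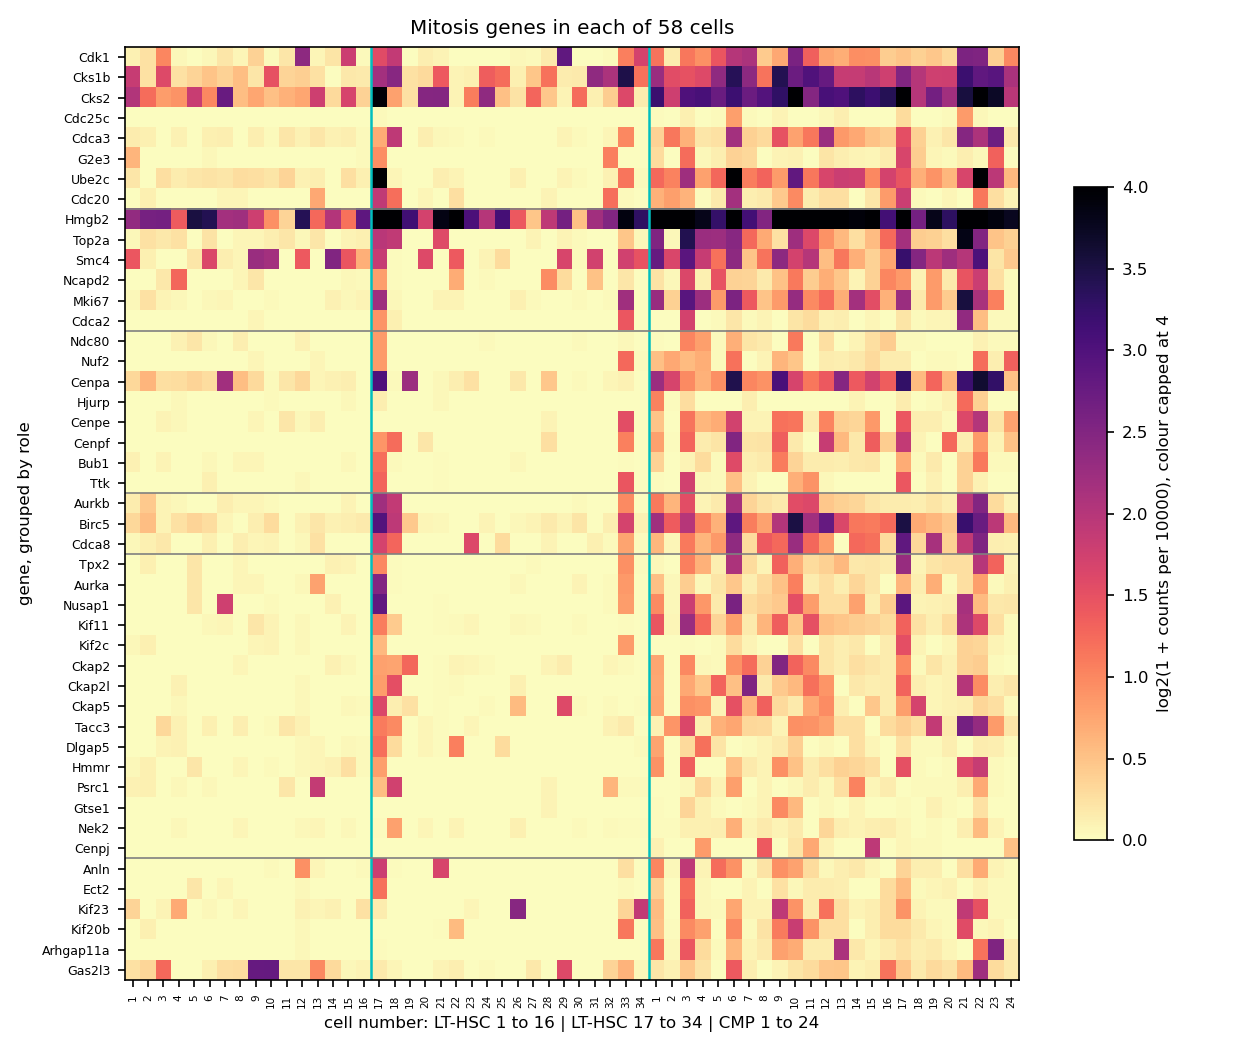
Level of each of the 46 mitosis genes in each of the 58 cells, as log2(1 + counts per 10000) with the colour capped at 4; rows are genes by role, columns are cells by number, vertical lines part the 3 pools and horizontal lines the roles. In LT-HSC the column of cell 17 is the most filled and those of cells 18 and 33 are filled in part. Most other LT-HSC columns are nearly empty outside Hmgb2, Cks1b, Cks2 and Smc4, while the CMP columns are filled to different degrees.

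Without LT-HSC 17, 32 of 46 genes were at least 2-fold higher in CMP than in the remaining LT-HSC 17 to 34 (35.4% of all genes), with a median log2 ratio of 1.87. Without it, 28 of 46 stood at least 2-fold higher in LT-HSC 17 to 34 than in LT-HSC 1 to 16 (28.4% of all genes), with a median of 1.72. Weighting each cell equally, as the mean of the cells' CPM, gave 35 of 46 genes at least 2-fold higher in CMP than in LT-HSC 17 to 34 (33.6% of all genes). CMP 1 and CMP 2, the CMP without an Xist count, held 88.2 and 39.0 mitosis gene counts per 10000, above every LT-HSC of the earlier block. In the later block LT-HSC 17 stood above both, at 155, and LT-HSC 33 and LT-HSC 18 above CMP 2, at 53.3 and 51.7. CMP 1 and CMP 2 taken alone gave 12 of 46 genes at least 2-fold higher than in LT-HSC 17 to 34 (21.5% of all genes), with a median log2 ratio of 0.17 where the median over all genes moved to -0.39.

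Among the genes of mitotic entry and exit, Cks1b and Cks2, the small subunits that bind Cdk1, had a count in nearly every cell of each pool. Cks2 held 0.231, 0.811 and 5.77 counts per 10000 (lowest, median and highest) in LT-HSC 1 to 16. The values were 0.0568, 0.582 and 14.4 in LT-HSC 17 to 34 and 2.41, 7.41 and 20.7 in CMP. The median CMP therefore lay above every LT-HSC but 1, LT-HSC 17. The pooled log2 ratio of CMP to LT-HSC 17 to 34 was 1.44 (1.37 to 1.52) and to LT-HSC 1 to 16 2.46 (2.33 to 2.60). Without LT-HSC 17, which held 55.5% of the Cks2 counts of its pool, the former was 2.44. Cks1b was nearer between CMP and LT-HSC 17 to 34, at 382 and 297 CPM and a log2 ratio of 0.36 (0.28 to 0.44), or 0.98 without LT-HSC 33, and stood at 65.7 CPM in LT-HSC 1 to 16.

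Cdk1 itself, the kinase that starts mitosis, had a log2 ratio of 0.13 (-0.01 to 0.27) in CMP over LT-HSC 17 to 34 and 0.90 over LT-HSC 1 to 16, under 2-fold in both. Without LT-HSC 12 the latter was 1.81. It had a count in 15 of 16, 11 of 18 and 24 of 24 cells, yet at least 10 counts in 3, 5 and 20. Cdc25c, the phosphatase that activates Cdk1, had 38 counts in 12 CMP, 2 in LT-HSC 17 and none in LT-HSC 1 to 16, so that it was at least 6.12-fold higher in CMP than in LT-HSC 1 to 16. Cdc20, an activator of the anaphase-promoting complex, was level between CMP and LT-HSC 17 to 34 at 49.8 and 57.5 CPM and stood at 4.99 in LT-HSC 1 to 16. More than 50% of the Cdc20 counts of LT-HSC 17 to 34, 53.1%, were in LT-HSC 17, and without it the log2 ratio went from -0.21 to 0.71. Over the 8 genes, 3 were at least 2-fold higher in CMP than in LT-HSC 17 to 34 (34% of all genes) and 7 than in LT-HSC 1 to 16 (37.1% of all genes).

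Of the 6 chromosome genes, 4 were at least 2-fold higher in CMP than in LT-HSC 17 to 34 (34% of all genes). The median log2 ratio of the chromosome genes was 1.43, the highest of the 6 roles. Mki67, which coats mitotic chromosomes and is used as a marker of cycling cells, held 0 (lowest), 0.0344 (median) and 0.178 (highest) counts per 10000 in LT-HSC 1 to 16. It held 0, 0.0127 and 3.70 in LT-HSC 17 to 34 and 0.0297, 1.22 and 10.7 in CMP. At least 10 Mki67 counts were found in none of the earlier LT-HSC, in 2 of the later ones (LT-HSC 17 and LT-HSC 33) and in 18 of 24 CMP. Top2a, the topoisomerase that untangles sister chromatids, reached at least 10 counts in 0, 4 and 19 cells, with log2 ratios of CMP of 1.52 over the later and 4.90 over the earlier LT-HSC.

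In the pooled values, the condensin genes Smc4 and Ncapd2 differed by less than 2-fold between the LT-HSC blocks. Smc4, the ATPase subunit of condensin, stood at 140 CPM in LT-HSC 1 to 16, 103 in LT-HSC 17 to 34 and 322 in CMP, and 8 of 16, 7 of 18 and 20 of 24 cells had at least 10 counts. Ncapd2, a subunit of condensin I, stood at 14.1, 17.0 and 60.6 CPM, and 83.3% of its counts in LT-HSC 1 to 16 came from LT-HSC 4. Its log2 ratio of LT-HSC 17 to 34 to LT-HSC 1 to 16 was 0.27. That ratio was 2.65 without LT-HSC 4 and -0.52 without LT-HSC 17. For Ncapd2 the log2 ratio of CMP to LT-HSC 17 to 34 was 1.83 (1.53 to 2.15), 2.61 without LT-HSC 17 and -0.60 with CMP 1 and CMP 2 alone. Hmgb2 stood at 2065, 1487 and 416 CPM in CMP, LT-HSC 17 to 34 and LT-HSC 1 to 16. Its log2 ratio of CMP to LT-HSC 17 to 34 was 0.47, and 1.07 without LT-HSC 17, which held 41.4% of the Hmgb2 counts of its pool. Cdca2, a chromatin regulator of mitotic exit, had 190 counts in CMP, 210 in LT-HSC 17 to 34 (140 of them in LT-HSC 33) and 1 in the earlier LT-HSC. Its log2 ratio of CMP to LT-HSC 17 to 34 was -0.26, and it went to 1.12 without LT-HSC 33 and to -1.37 without CMP 3.

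All 8 kinetochore genes were at least 2-fold higher in CMP than in LT-HSC 1 to 16 (37.1% of all genes). Against LT-HSC 17 to 34, 4 of 8 were at least 2-fold higher in CMP (34% of all genes). The median log2 ratios were 4.48 and 1.01. Cenpa, the histone H3 variant that marks centromeres, had at least 10 counts in 1 of 16, 2 of 18 and 24 of 24 cells. Its level was 0, 0.21 and 3.6 counts per 10000 (lowest, median and highest) in LT-HSC 1 to 16. It was 0, 0.0347 and 7.08 in LT-HSC 17 to 34 and 0.416, 1.66 and 11.4 in CMP. LT-HSC 17 held 91.2% of the Cenpa counts of its pool, and CMP stood above that pool by a log2 ratio of 1.80 (1.67 to 1.94), or 5.12 without that cell. Hjurp, the chaperone that loads Cenpa, had 119 counts in CMP, 9 in LT-HSC 17 to 34, and 3 in the earlier LT-HSC. Of its CMP counts 62.2% were in CMP 1, and its log2 ratio over LT-HSC 17 to 34 went from 3.54 to 2.30 without that cell and to 5.29 without LT-HSC 17.

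Cenpf, a kinetochore protein that accumulates in G2, had no count in LT-HSC 1 to 16, 271 counts in 5 cells of LT-HSC 17 to 34 and 539 counts in 22 of 24 CMP. It was at least 86.7-fold higher in CMP than in LT-HSC 1 to 16. Cenpe, the kinetochore motor that moves chromosomes to the metaphase plate, had 157 of its 158 counts in LT-HSC 17 to 34 in LT-HSC 33, and 473 counts in 22 CMP. Ttk, a kinase of the spindle checkpoint, was nearly level in the pools, with 31 CPM in CMP against 38.5 in LT-HSC 17 to 34, yet the latter came from 3 cells and the former from 13. Its log2 ratio went from -0.31 to 0.71 without LT-HSC 33 and to -1.24 without CMP 3. Bub1, another checkpoint kinase, had 95 of 100 counts of LT-HSC 17 to 34 in LT-HSC 17, and its log2 ratio of 0.62 went to 4.64 without it. Ndc80 and Nuf2, which bind each other and grip microtubules, were split between cells there: 57 of 62 Ndc80 counts were in LT-HSC 17, and 116 of 174 Nuf2 counts in LT-HSC 33.

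The passenger genes Birc5, Cdca8 and Aurkb encode survivin, borealin and the kinase that corrects faulty attachments. Birc5 held 0, 0.109 and 0.445 counts per 10000 (lowest, median and highest) in LT-HSC 1 to 16. It held 0, 0.065 and 6.76 in LT-HSC 17 to 34 and 0.372, 1.85 and 10.4 in CMP. All 24 CMP and 3 of the 34 LT-HSC had at least 10 Birc5 counts, the 3 being in the later block. Cdca8 stood at 141 CPM in CMP, 60.9 in LT-HSC 17 to 34 and 4.69 in the earlier LT-HSC. Its log2 ratio of CMP to LT-HSC 17 to 34 was 1.21 (1.04 to 1.38), 0.91 without CMP 17, 1.80 without LT-HSC 17 and -0.99 with CMP 1 and CMP 2 alone. Aurkb was nearly level between CMP and LT-HSC 17 to 34, at 76.9 and 88.9 CPM, the latter from 4 cells and the former from all 24 CMP, and its log2 ratio went from -0.21 to 0.50 without LT-HSC 17. Birc5 lay at the 2-fold limit, with a log2 ratio of 1 that was 1.88 without LT-HSC 17 and 0.78 without CMP 17.

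Of the 15 spindle and centrosome genes, 14 were at least 2-fold higher in CMP than in LT-HSC 1 to 16 (37.1% of all genes). With LT-HSC 17 to 34 as the comparison, 8 of the 15 passed that limit (34% of all genes). Another 2 were lower in CMP by 2-fold or more (20% of all genes). Kif11, the motor that pushes spindle poles apart, stood at 92.5, 18.3 and 2.93 CPM in CMP, LT-HSC 17 to 34 and LT-HSC 1 to 16, with log2 ratios of CMP of 2.34 (2.06 to 2.64) and 4.91 (4.09 to 6.05). LT-HSC 17 held 68.9% of the Kif11 counts of its pool, and without it the former ratio was 3.84. Hmmr, a spindle-binding protein, had all 55 of its counts in LT-HSC 17 to 34 in LT-HSC 17, and 351 counts in 18 CMP. Nusap1, which bundles spindle microtubules, had a log2 ratio of 0.35 (0.19 to 0.52) in CMP over LT-HSC 17 to 34, where 87.2% of the counts came from LT-HSC 17. Without that cell the ratio was 3.13, and without CMP 17 it was -0.17.

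Aurka and Psrc1 were higher in LT-HSC 17 to 34 than in CMP, and each through 1 cell. Aurka, the kinase that matures centrosomes, stood at 62.6 CPM against 27.3, a log2 ratio of CMP of -1.19 (-1.45 to -0.94). LT-HSC 17 held 82.4% of those counts, and without it the ratio was 1.13, higher in CMP. Aurka had a count in 23 of 24 CMP and in 6 of 18 LT-HSC 17 to 34. Psrc1, which binds spindle microtubules, stood at 40 CPM against 10.3, a log2 ratio of -1.95 (-2.35 to -1.57). LT-HSC 18 held 77.4% of those counts, and without it the ratio was -0.01. In LT-HSC 1 to 16 Psrc1 stood at 18.5 CPM, with 57 of its 63 counts in LT-HSC 13, and the log2 ratio of CMP went from -0.84 to 2.36 without that cell. Against all LT-HSC the Psrc1 ratio was -1.65, and -0.38 without LT-HSC 18.

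Several genes were nearly limited to CMP. Arhgap11a, a RhoA regulator of cytokinesis, had 461 counts in 23 of 24 CMP and 1 count in each LT-HSC pool. After each cell was thinned to 97978 counts, it was found in 17 of 22 CMP, 1 of 14 LT-HSC 1 to 16 and 0 of 16 LT-HSC 17 to 34. Its log2 ratio in CMP over LT-HSC 17 to 34 was 8.15 (6.25 to 14.04). LT-HSC 17, with 11275 mitosis gene counts, had 1 Arhgap11a count. Of the 2842 genes with at least 400 counts in CMP, 5 had at most 2 in all LT-HSC, and Arhgap11a was 1 of them. The gene lies on the minus strand of chr2:113831492-113848661 in GENCODE M21, on mm10, and overlaps no other annotated gene.

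Cenpj, a centriole protein that sets centriole length, had 158 counts in 11 CMP and none in any LT-HSC, so that it was at least 48.6-fold higher in CMP than in LT-HSC 17 to 34. CMP 15 held 37.3% of those counts. Gtse1, which stabilises spindle microtubules, had 62 counts in 14 CMP, 1 in LT-HSC 17 to 34, and 0 in the earlier LT-HSC. LT-HSC 17, LT-HSC 18 and LT-HSC 33 had at most 1 count of each of Arhgap11a, Cenpj and Gtse1. Of the 6650 genes with at least 100 counts in CMP, 86 (1.29%) had at most 2 in all LT-HSC. Those 86 held 2 of the 42 mitosis genes with that many CMP counts, Arhgap11a and Cenpj. Gtse1 had too few CMP counts for that set.

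Cytokinesis genes had the lowest median log2 ratio of CMP to LT-HSC 17 to 34 among the 6 roles, at 0.61, and 2 of 6, Arhgap11a and Kif20b, were at least 2-fold higher in CMP, a share near the 34% of all genes. The Kif20b ratio of 1.11 was 3.72 without LT-HSC 33 and 0.77 without CMP 10. Kif23, the central spindle motor, stood at 48.4 and 50.3 CPM, and 59.1% of the latter came from LT-HSC 34, a cell with 17.3 mitosis gene counts per 10000 in all. Without it the log2 ratio went from -0.05 to 1.06. Anln, the contractile ring scaffold, was likewise level at 49.0 and 47.2 CPM, and Ect2, the activator of RhoA at the cell equator, at 18 and 14.7, with 94 of 96 LT-HSC counts in LT-HSC 17. With that cell left out, the log2 ratio of Anln went from 0.05 to 1.13 and that of Ect2 from 0.29 to 5.39.

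Gas2l3, a linker of actin and microtubules at the midbody, was the 1 gene at least 2-fold higher in LT-HSC 1 to 16 than in CMP (21.9% of all genes). It stood at 113 CPM in LT-HSC 1 to 16, 18.4 in LT-HSC 17 to 34 and 35.1 in CMP. LT-HSC 10 held 49.9% of the counts of the earlier block, and 4 of its 16 cells had at least 10 counts, against 3 of 18 and 8 of 24. The log2 ratio of CMP to LT-HSC 1 to 16 was -1.68, and -0.83, under 2-fold, without LT-HSC 10. The log2 ratio of LT-HSC 17 to 34 to LT-HSC 1 to 16 was -2.61 (-2.92 to -2.32), and -1.76 without LT-HSC 10.

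Low counts of mitosis genes were common in the LT-HSC 1 to 16. The median gene had a count in 5.5 of the 16 cells but at least 10 counts in none. In LT-HSC 17 to 34 it had a count in 5.5 of 18 cells and at least 10 in 2, and in CMP a count in 22 of 24 cells and at least 10 in 8. After thinning to 97978 counts, which left out 2 cells of each pool, a median of 12.5, 10.5 and 34 of the 46 genes had a count in a cell. S100a8 and S100a9 of neutrophils had a count in all 34 LT-HSC as well, and with 7 further neutrophil genes they summed to 2.19, 3.10 and 4.47 counts per 10000 (lowest, median and highest) in LT-HSC 1 to 16 and to 2.21, 3.48 and 6.06 in LT-HSC 17 to 34. In CMP they summed to 0.0303, 5.30 and 59.4. Whether transcripts from other cells take part in the low counts of the mitosis genes was not tested.

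Within CMP the mitosis genes varied together. Each gene's level, as log2(1 + counts per 10000), was set against the summed level of the other 45 across the 24 CMP, as a description over cells of 1 gate. Pearson's r ran from -0.25 for Cenpj to 0.88 for Birc5, with a median of 0.57, and was over 0.5 for 29 of 46 genes. Hmmr (0.84), Cenpe (0.84), Kif23 (0.79) and Mki67 (0.79) followed Birc5, and Ckap5 (0.04) and Dlgap5 (0.13) came just above Cenpj. Over 6975 other genes found in at least 12 CMP, the median r with the 46-gene sum was 0.04 and 2.05% were over 0.5. The log2 total count of a cell had an r of -0.13 with that sum. The other genes most like it were Casc5 (0.82), Nup160 (0.80), Reep4 (0.78), Prc1 (0.76), Bub1b (0.75), Tubb4b (0.74), Tuba1c (0.73) and Mrps9 (0.72). Casc5 encodes a kinetochore scaffold, Prc1 a crosslinker of the central spindle and Bub1b a checkpoint protein.

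The CMP with the highest sums were CMP 22 at 163, CMP 21 at 152, CMP 6 at 146, CMP 17 at 132 and CMP 3 at 117 counts per 10000. CMP 17 led the pool for Cks2 with 769 counts, Birc5 with 387, Cenpa with 322, Nusap1 with 238, Cdca8 with 228 and Tpx2 with 145. CMP 3 led for Top2a with 465, Mki67 with 310, Kif11 with 181, Anln with 132, Ttk with 112 and Cdca2 with 108. Its S phase genes summed to 77.0 counts per 10000, against 25.5 in CMP 17, 22.7 in CMP 6 31.3 in CMP 22 and 53.3 in CMP 21. The CMP with the lowest sum, CMP 18, held 23.2 counts per 10000 with a count of 40 of the 46 genes, where the median LT-HSC had a count of 17.5.

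**Figure D5:**
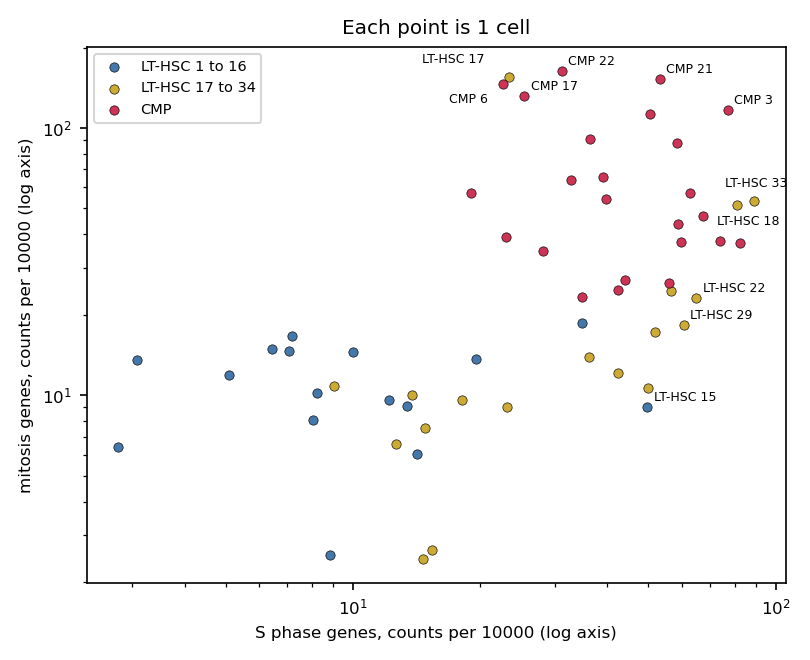
Summed counts per 10000 of 40 S phase genes (x, log axis) and of the 46 mitosis genes (y, log axis); each point is 1 cell, coloured by pool, and a selection of cells is labelled. LT-HSC 17 lies among the CMP with the highest mitosis and lower S phase sums, and several LT-HSC 17 to 34 lie at CMP levels of S phase genes with mitosis sums below the lowest CMP.

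S phase genes, 40 genes of DNA replication such as Mcm2 and Pcna, put the median cells of the pools in the same order. They summed to 2.79, 8.54 and 49.8 counts per 10000 (lowest, median and highest) in LT-HSC 1 to 16, to 9.03, 29.8 and 88.9 in LT-HSC 17 to 34 and to 19, 43.3 and 82.6 in CMP. Of the 18 LT-HSC 17 to 34, 11 were above the lowest CMP in S phase genes, and 7 of these 11 were below the lowest CMP in mitosis genes. Among the LT-HSC 1 to 16, 3 were above the lowest CMP in S phase genes, all 3 below it in mitosis genes. In the pools, 8 of the 40 S phase genes were at least 2-fold higher and 4 lower in CMP than in LT-HSC 17 to 34, with a median log2 ratio of 0.14, where 34% of all genes were higher and 20% lower. Against LT-HSC 1 to 16, 37 were at least 2-fold higher in CMP (37.1% of all genes), with a median of 1.94. Across the 24 CMP the S phase sum and the mitosis sum had an r of -0.17.

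A list of 96 further mitosis genes gave the pools in the same order, with smaller medians. In CMP against LT-HSC 17 to 34, 41 were at least 2-fold higher and 3 lower (34% and 20% of all genes), with a median of 0.69. Against LT-HSC 1 to 16, 80 were higher and 1 lower (37.1% and 21.9% of all genes), with a median of 3.02, or 2.84 with genes without a count at their limit. Among the 94 that met the limit of 20 counts used for all genes, 39 and 78 were higher in these 2 comparisons. Cyclin B2 (Ccnb2) stood at 288 CPM in CMP, 144 in LT-HSC 17 to 34 and 8.80 in the earlier LT-HSC, and Plk1, the polo-like kinase, at 25.3, 25.6 and 2.35. The lowest ratios of CMP to LT-HSC 17 to 34 were those of Shcbp1 at -1.72, Ska1 at -1.54, Mad1l1 at -1.26 and Sgol2a at -0.89. LT-HSC 17 held 61.2% of the Ska1 and 56.2% of the Mad1l1 counts of its pool, LT-HSC 33 held 40.8% of the Shcbp1 and LT-HSC 18 held 50% of the Sgol2a counts. The highest were those of Depdc1a, Foxm1 and Kif14, without a count in LT-HSC 17 to 34, and Ncapd3. Depdc1a was at least 106-fold, Foxm1, a transcription factor of mitotic genes, at least 40.6-fold and Kif14, a cytokinesis motor, at least 31.4-fold higher in CMP. Ncapd3, a subunit of condensin II, had 548 counts in CMP against 2, a log2 ratio of 7.66 (6.12 to 11.03). In the promoters of this list TTTGAA was present in 49.4% of 79 windows, and in those of the S phase list in 17.2% of 29, while CCAAT was present in 65.8% and 72.4%.

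Of the 46 genes, 22 overlap another annotated gene in GENCODE M21, and the partner has counts here in 4 cases. Elovl1 lies across from Cdc20 on the other strand, with 515 counts in CMP, 656 in the later LT-HSC and 488 in the earlier, and Oip5 lies across from Nusap1 with 87, 10 and 3. Tmem129 lies across from Tacc3 and 9930104L06Rik across from Cdca8. Whether counting used strand is not given in the sources used here, so counts of these pairs could be mixed.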

How the data were processed

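Libraries were made from singly sorted cells with a modified Smart-seq2 method, a barcoded oligo(dT) primer with a molecular identifier and capture of 3′ ends, per the labels' protocols. The submitters' processing notes name Seurat 2.0, HTSeq, TopHat2 2.0.12 and mm10 without their roles. The deposited table holds whole-number counts of 23152 symbols in 58 cells. Whether they count molecules or reads is not given in the sources used here, so intervals cover counting error only and are too narrow if they are reads. Because only 3′ ends were read, levels of different genes were not compared.

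All cells and genes entered the totals, and doublets were not called. Counts were summed per pool and divided by the pool's total to give CPM, with exact Poisson intervals. Log2 ratios had 0.5 added to each count and exact conditional binomial intervals. Differences of 2-fold or more were called, and counts over all genes used those with at least 20 counts over both pools. Where a pool had no count, 3 counts over the pool gave a lower bound. The ratio step was run on simulated pools of Poisson counts without variation between cells. That run checks the calculation and cannot show whether the intervals cover variation between cells. For shares of cells, each cell was thinned to 97978 counts, the 10th percentile of totals, leaving out shallower cells. No p-value was computed, since cells are not replicates.

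Members and lists were chosen with earlier results of these data known. Full values were given, per role, for the 2 members with the most counts, those with the highest and lowest ratio of CMP to LT-HSC 17 to 34 and any at least 2-fold lower in CMP, and for the 4 highest and 4 lowest further mitosis genes; other genes named were chosen after their values were seen. Alternatives were other scalings (median of ratios, and TMM from edgeR 4.0.16), mean CPM per cell, thinning, other thresholds, subsets of cells and leaving out each cell. Promoters came from RefSeq on GRCm38.p6, which is mm10. Protein sequences were not used here. Python 3.11.15, pandas 2.3.3, scipy 1.17.1 and matplotlib 3.10.9 were used.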

Additional observations from a re-analysis of the deposited data

How the results depend on the processing

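No paired analysis was possible because every result comes from no test, and a cell number shared by an LT-HSC and a CMP names a cell and nothing more. The direction of each median held under every alternative tried. The count of 23 genes higher in CMP than in LT-HSC 17 to 34 went to 35 with the mean of the cells' CPM, to 12 with CMP 1 and CMP 2 alone and to 7 at 4-fold, and its median of 0.97 to 1.80, 0.17 with those CMP, and 1.85 after thinning. The share of all genes was 34% at first, 33.6% with mean CPM and 21.5% with those CMP. Shares of all genes at 4-fold were not computed for any comparison. For LT-HSC 17 to 34 against LT-HSC 1 to 16 the mean of the cells' CPM moved the median from 2.81 to 1.97. For CMP against all LT-HSC the median of 1.47 went to 2.36 with mean CPM, 2.42 after thinning and 0.73 with CMP 1 and CMP 2 alone, and the count of 28 to 12 at 4-fold. Left out in turn, single cells gave medians of 0.83 to 1.87 (19 to 32 genes) against LT-HSC 17 to 34, 3.84 to 4.14 (43 to 44) against LT-HSC 1 to 16, 1.72 to 3.10 (28 to 38) between the LT-HSC pools and 1.29 to 2.39 (26 to 37) between the gates, LT-HSC 17 giving the extreme value of each comparison that shifted most. Shares of all genes with a cell left out were computed for LT-HSC 17 only. They were 35.4% against LT-HSC 17 to 34 and 28.4% between the LT-HSC pools. Among the named ratios of at least 2-fold, those that changed sign were Ncapd2 (-0.60) and Cdca8 (-0.99) with CMP 1 and CMP 2 alone, and Aurka (-1.39 to 1.13 over the cells left out, 1.13 without LT-HSC 17). Without Hmgb2, Top2a and Mki67 the median LT-HSC 1 to 16 held 6.21 counts per 10000 in place of 11.1. Asking for 10 counts took the median percent of cells with a gene from 34.4 to 0 in LT-HSC 1 to 16 and from 91.7 to 33.3 in CMP. Median-of-ratios scaling shifted all genes by -0.15, -0.23, -0.03 and -0.15 in the 4 comparisons, TMM by -0.14, -0.19, -0.02 and -0.15, and a total without ribosomal protein genes by -0.11 in CMP against LT-HSC 1 to 16 and -0.10 between the LT-HSC pools. The causes were not tested. Of the named genes' values under these alternatives, 148 lay within the counting interval of the value reported, 102 outside it, and 3 were the sign changes just given. Ratios under 2-fold, where a change of sign is not counted as one of these, changed sign for 12 of 21 genes when single cells were left out of CMP against LT-HSC 17 to 34, and 26 of all 46 genes crossed a 2-fold limit there. Neither count was made over all genes. Depth limits a gene without a count to 0.880, 0.460 and 0.425 CPM in LT-HSC 1 to 16, LT-HSC 17 to 34 and CMP.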
